A study of Mus musculus with 9 samples.

Results

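A set of 41 genes for protein folding and the cellular stress responses was followed in sciatic nerves of control, PINCH1 mutant and PINCH2 mutant mice. The members were the rows of a count table whose gene symbol was on a given list, and all 41 were found among its 25965 entries. The list had 25 members of an endoplasmic reticulum (ER) class and 16 of a heat shock class. The ER class included Snx22, a sorting nexin gene that lies over the exons of Ppib on the opposite strand. PINCH1 and PINCH2 are adaptor proteins of integrin adhesions, encoded by Lims1 and Lims2.

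All mice had the C57BL/6 background. The controls were littermates of the mutants. Each genotype had 3 RNA-seq libraries, and each library was made from a pool of 4 nerves taken from 1 male and 1 female, with the epineurium removed. The stage label put the age at postnatal day 15, while the protocol put it at postnatal day 14. The way of making the mutants, and the cells in which the genes were altered, were not given in the sources used here.

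Secretory and membrane proteins fold in the ER with the help of chaperones such as BiP (Hspa5), and unfolded protein there triggers the unfolded protein response. That response runs through the sensors Ire1, Perk and Atf6, and through the transcription factors Xbp1, Atf4 and Chop (Ddit3), to chaperone and degradation genes. In the cytosol, heat shock factor 1 (Hsf1) induces chaperones of the Hsp70, Hsp90, J-domain and small heat shock families. Schwann cells, which make large amounts of myelin membrane protein, rely on this machinery, and some myelin protein mutations are known to activate the unfolded protein response.

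No member passed an adjusted p of 0.05 in either mutant or between the mutants. Adjusted p-values here are from edgeR's quasi-likelihood test with Benjamini-Hochberg adjustment over all 4738 tested entries. A filter on low counts left 21 of the 41 members in the test, 14 of the ER class and 7 of the heat shock class. DESeq2 and limma-voom also called 0 members in each comparison. Hspa8, the constitutive cytosolic Hsp70, gave the smallest p of the set, at a lower level in the PINCH2 mutants. Xbp1 and the ER lectin chaperone Canx followed it, also at lower levels in the PINCH2 mutants. Among the stress-inducible members, Hspa1a, Hspa1b, Trib3, Chac1, Asns and Sdf2l1 had between 0 and 13 counts each over all 9 libraries. Others had more, with 698 for Ddit3, 477 for Hspa5, 355 for Hsp90aa1 and 21 for Herpud1.

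Libraries held 957828 to 1204964 counts, with 9674 to 11240 entries detected in each. The members other than Snx22 made up 0.0832% to 0.118% of a library. An absence of counts allows up to 3 counts, which is 2.49 to 3.13 CPM once each library is scaled to its total. This bound covers counting error only and treats each count as independent, which was not tested. Lims1 had 3, 7 and 7 counts across the control libraries, 0, 1 and 3 across PINCH1 mutant libraries and 0, 1 and 9 across PINCH2 mutant libraries. Lims2 had 9, 1 and 5 counts across the control libraries, 5, 3 and 1 across PINCH1 mutant libraries and 5, 1 and 1 across PINCH2 mutant libraries. These counts were too few to check the genotype labels. All 10 Schwann cell and myelin markers of the labelled tissue were present and tested, and their summed level ran from 15190 to 17470 CPM in the controls, 11960 to 13330 in the PINCH1 mutants and 11760 to 13670 in the PINCH2 mutants. Keratinocyte markers were at 0 in all libraries, and of the muscle, adipocyte and neuron markers Acta1, Adipoq, Plin1, Snap25 and Rbfox3 were at 0. The other markers of those lists had few counts over all libraries, with 43 for Fabp4, 10 each for Ckm and Tnnt3, 8 for Nefl, 6 for Cidec, 2 each for Tubb3 and Myh1 and 1 for Myh4.

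The upstream sequences of the members carried the known elements of the 2 stress responses, and some are shown here because these elements are the textbook binding sites of Atf6 and Hsf1. RefSeq windows of the 250 bases before a start site, on the GRCm38.p6 build, were found for 35 members. Hspa8, Hsp90aa1, Hsp90ab1, Hsf1, Hyou1 and Manf had no window. The ER stress element was searched on both strands as CCAAT, any 9 bases and CCACG. It was present in 8 of 23 ER class members (34.8%), in 0 of 12 heat shock members and in 0.13% of the 27025 genes with a window. The 8 were Hspa5, Hsp90b1, Dnajc3, Pdia6, Calr, Canx, Creld2 and Syvn1. The second motif of the element, CCACG, searched by itself, was in 78.3% of the ER class members and in 31% of all genes. Sequences are written 5′ to 3′ in the direction of the gene, and capitals mark the CCAAT and CCACG motifs that make up the spaced element, or their reverse complements. Further copies of CCACG, as in Canx and Pdia6, are left in lower case.
Canx, minus strand, chr11:50325785-50325833: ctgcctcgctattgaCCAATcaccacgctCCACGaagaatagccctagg
Pdia6, plus strand, chr12:17266476-17266524: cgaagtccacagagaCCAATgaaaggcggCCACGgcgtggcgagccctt
Hsp90b1, minus strand, chr10:86705623-86705671: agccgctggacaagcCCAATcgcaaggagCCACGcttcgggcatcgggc
Syvn1, plus strand, chr19:6046517-6046565: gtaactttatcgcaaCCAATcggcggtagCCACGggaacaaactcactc
Calr, minus strand, chr8:84847060-84847108: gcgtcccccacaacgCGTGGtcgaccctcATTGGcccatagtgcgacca
Hspa5, plus strand, the element alone: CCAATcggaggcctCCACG
In Calr the element lies on the other strand and is printed as its reverse complement. The Hspa5 element falls in an exon of the GENCODE M21 annotation, so only its 19 bases are given.

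The core of the heat shock element was searched as GAANNTTC, which reads the same on both strands. It was present in 6 of 12 heat shock members (50%), in 2 of 23 ER class members (8.7%) and in 7.73% of all genes. The 6 were Hspa1a, Hspa1b, Dnaja1, Hspb1, Hspd1 and Hspe1. The matches of Hspd1 and Hspe1 are the same bases read from opposite strands. The windows of Hspa1a and Hspa1b were identical at 247 of 250 bases, and the stretches around the element did not differ. Hspb1 holds 2 copies. Capitals mark each copy of the element.
Hspa1a, minus strand, chr17:34972233-34972280: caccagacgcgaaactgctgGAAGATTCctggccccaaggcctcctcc
Hspa1b, minus strand, chr17:34959315-34959362: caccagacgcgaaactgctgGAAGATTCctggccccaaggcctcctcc
Hspb1, plus strand, chr5:135887782-135887829: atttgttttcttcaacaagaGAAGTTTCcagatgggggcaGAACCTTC
The amino acid response element TGATGCAA, which Atf4 is known to bind, was in the windows of Herpud1 and Chac1 and in 0.918% of all genes. A match of letters is a description of the window and not of binding.

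Counts under several member names could not be told from transcription of an overlapping gene, since the sources used here do not give the strand setting of the counting. In all, 13 members had exons that overlap a gene on the opposite strand, as did 24.8% of all entries and 2794 of the 4738 tested. Across the whole table, entries without such an overlap held only 9.64% to 13.7% of a library's counts. What this share means for the levels of members without an overlap was not tested. Ppib (chr9:66060169-66066629, plus strand) encodes cyclophilin B, a prolyl isomerase of the ER, and shares 825 bp of exon with Snx22 (chr9:66065176-66069731, minus strand). Snx22 had 10850, 11973 and 10808 counts across the control libraries, 11926, 12695 and 12913 across PINCH1 mutant libraries and 9050, 12355 and 10623 across PINCH2 mutant libraries. Ppib had 17, 58 and 38 counts across the control libraries, 28, 41 and 23 across PINCH1 mutant libraries and 23, 30 and 47 across PINCH2 mutant libraries. The Snx22 count was thus 338 times that of Ppib over all libraries, and between 206 and 638 times in single libraries. Snx22 alone took 0.93% to 1.33% of a library's counts and had the highest level per kb of exon among the members, at 3799 CPM per kb against 9.89 for Ppib.

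Other members showed the same arrangement at smaller scale. Manf, a secreted ER stress protein, overlaps the gene listed as Vprbp by 146 bp, and Vprbp had 16642 counts in all against 240 for Manf. Hspa1a, the heat-inducible Hsp70, overlaps Gm20481 by 564 bp, and Gm20481 had 1122 counts against 9 for Hspa1a. In other pairs the member was the higher entry. Ddit3 had 698 counts against 164 for Mars, which it overlaps by 68 bp, and Dnaja1 had 970 counts against 76 for Smu1, which it overlaps by 608 bp. Syvn1, the ubiquitin ligase of ER-associated degradation, and its partner Mrpl49 were close, at 285 and 329 counts. Ppp1r15a overlaps Tulp2 by 12 bp, and Hsp90b1 overlaps 1810014B01Rik, which was not analysed here, by 415 bp. Of the tested members with no such overlap, Hspa5, Xbp1, Atf4, Calr and Hsp90ab1 had an opposite-strand gene within 5000 bp, namely Rabepk, Ccdc117, Rps19bp1, 1700122E12Rik and Slc35b2.

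**Figure D1:**
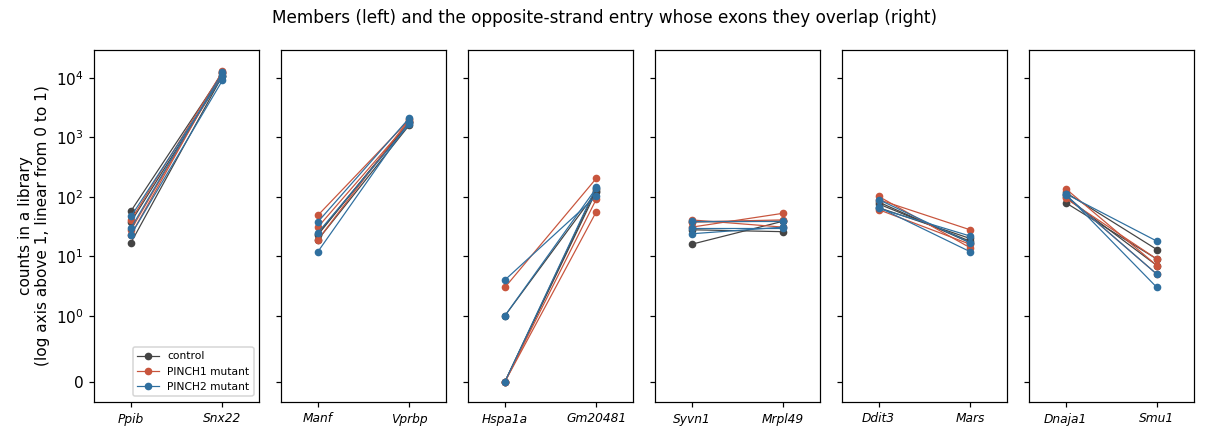
Counts in each of the 9 libraries (log axis above 1, linear from 0 to 1) of 6 members and of the opposite-strand entry that each overlaps, with lines joining the 2 values of a library. Snx22, Vprbp and Gm20481 lie above their members in every library, while Ddit3 and Dnaja1 lie above Mars and Smu1.

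Most of the list was thinly covered. Over 9 libraries, 17 members had more than 100 counts, 20 had 2 to 100, Trib3 and Sdf2l1 had 1 each, and Chac1 and Asns had 0. The filter kept Ppp1r15a with 70 counts, while Dnajc3 with 82 fell outside it, as the filter asks for a minimum level in at least 3 libraries. At such counts the table itself was uneven, since 83.6% of values from 1 to 4 were odd, against 50.1% of values over 50.

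**Figure D2:**
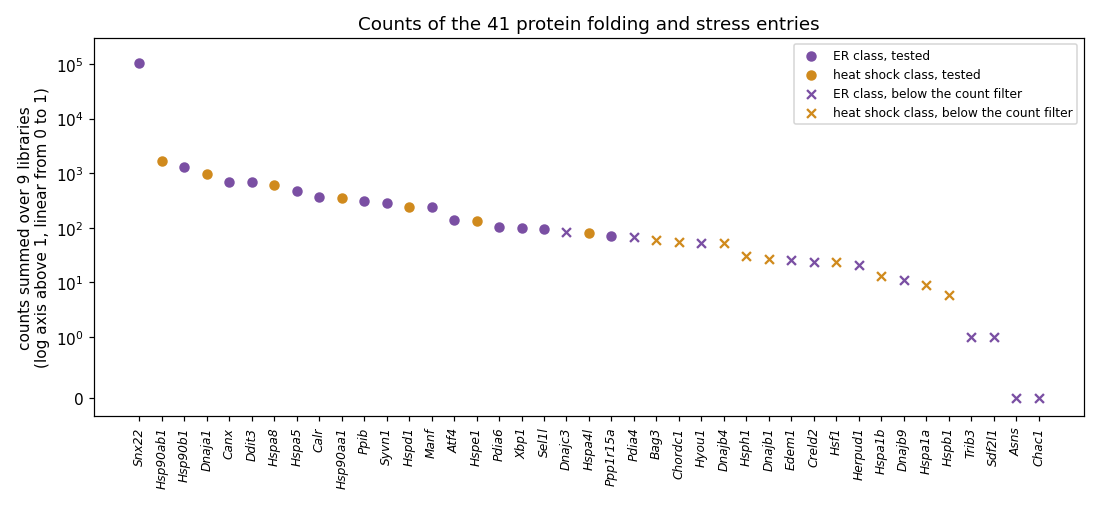
Counts of each of the 41 members summed over the 9 libraries (log axis above 1, linear from 0 to 1), from highest to lowest; circles were tested and crosses fell below the count filter. Snx22 stands at 103193, all other members together reach 9476, and Chac1 and Asns sit at 0.

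Among the ER chaperones and folding enzymes, 7 of 13 were tested and 0 passed, against 0.0633% of all tested entries called in the PINCH1 mutants and 0.0211% in the PINCH2 mutants. Hsp90b1, the ER Hsp90, was the most abundant of them per kb of exon, at 33.5 CPM per kb. Its level was 137, 117 and 192 CPM across the control libraries, 135, 169 and 107 across PINCH1 mutant libraries and 106, 130 and 122 across PINCH2 mutant libraries. All 3 ranges overlapped. Hspa5, the Hsp70 of the ER and the usual gauge of ER stress, had 31.0, 52.8 and 56.4 CPM across the control libraries, 44.7, 73.8 and 50.9 across PINCH1 mutant libraries and 38.1, 44.3 and 64.3 across PINCH2 mutant libraries. Its ranges overlapped too, and its ratio to the controls was 1.2 in the PINCH1 mutants (95% confidence interval 0.76 to 1.89) and 1.04 in the PINCH2 mutants (0.66 to 1.65). For Hspa5 the interval thus lay within a 2-fold change in either direction.

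Canx, a lectin chaperone that holds glycoproteins in the ER and is known to bind the myelin protein Pmp22, had 78.6, 89.5 and 100.3 CPM across the control libraries. It had 83.0, 47.7 and 74.3 CPM across PINCH1 mutant libraries and 58.2, 63.6 and 64.3 across PINCH2 mutant libraries. The PINCH2 mutants all lay below the controls, and the PINCH1 mutants overlapped them. The log2 fold change was -0.53 (SE 0.25) in the PINCH2 mutants, with an unadjusted p of 0.0463 and an adjusted p of 0.999 by edgeR. In the PINCH1 mutants it was -0.38 (SE 0.25), with an adjusted p of 0.837. Calr, its soluble counterpart, showed log2 fold changes of 0.11 (SE 0.41) and -0.54 (SE 0.42) in the PINCH1 and PINCH2 mutants, and its libraries ranged from 21.7 to 72.6 CPM.

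Pdia6, a disulfide isomerase of the ER, was the only tested member whose PINCH1 mutant libraries did not overlap the controls, against 13.7% of all tested entries in either direction. It was outside the rule for full values and was picked after they were seen. Its level was 9.30, 8.48 and 2.69 CPM across the control libraries, 15.5, 12.5 and 12.5 across PINCH1 mutant libraries and 11.6, 9.20 and 17.1 across PINCH2 mutant libraries. The log2 fold change was 0.99 (SE 0.58, adjusted p = 0.803) in the PINCH1 mutants and 0.89 (SE 0.58, adjusted p = 0.999) in the PINCH2 mutants. Counts were only 3 to 17 in a library, and Pdia6 overlaps Atp6v1c2, which had 54 counts in all.

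Manf was at 20.9 ± 1.13 CPM in the controls (SD, n = 3), 30.2 ± 9.82 in the PINCH1 mutants and 23.4 ± 10.2 in the PINCH2 mutants. The lowest library of each mutant lay among or below the controls, so both ranges overlapped them. Ppib was at 35.4 ± 18.6, 30.4 ± 14.3 and 32.2 ± 13.0 CPM (SD, n = 3) in the same order. The other folding members were not tested. Dnajc3, a J-domain cochaperone of BiP, had 82 counts in all, Pdia4, a disulfide isomerase, had 69, and Hyou1, the ER Hsp110, had 53. Pdia4 had 1, 5 and 5 counts across the control libraries, 19, 7 and 7 across PINCH1 mutant libraries and 11, 5 and 9 across PINCH2 mutant libraries. The PINCH1 mutants all lay above the controls for Pdia4, which was below the count filter and has no test. Creld2 had 24 counts, Dnajb9, another BiP cochaperone, had 11 and Sdf2l1 had 1. All 11 Dnajb9 counts fell in controls (1, 3 and 3) and PINCH1 mutants (3, 1 and 0), and the 0 counts in each PINCH2 library allow up to 3.

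In ER-associated degradation, which returns misfolded proteins to the cytosol for the proteasome, 2 of 4 members were tested and 0 passed. Sel1l, the adaptor of the ligase complex, had log2 fold changes of 0.35 (SE 0.62) and 0.36 (SE 0.62) in the PINCH1 and PINCH2 mutants, from 3 to 17 counts in a library. Syvn1 had 0.41 (SE 0.34) and 0.18 (SE 0.35). Edem1, a lectin of the same route, had 26 counts in all, and Herpud1, a membrane protein of the ligase complex, had 21.

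Xbp1, the transcription factor spliced by Ire1, had 19.6, 18.8 and 9.85 CPM across the control libraries. It had 7.30, 10.2 and 10.9 CPM across PINCH1 mutant libraries and 3.18, 9.20 and 5.03 across PINCH2 mutant libraries. The PINCH2 mutants all lay below the controls, though control library 3 was within 1 CPM of the highest PINCH2 value, and the PINCH1 mutants overlapped the controls. The log2 fold change was -1.42 (SE 0.59) in the PINCH2 mutants, with an unadjusted p of 0.0253 and an adjusted p of 0.999 by edgeR. In the PINCH1 mutants it was -0.76 (SE 0.56), with an adjusted p of 0.867. These values rest on 3 to 20 counts in a library, and gene counts do not show the splicing of Xbp1.

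Ddit3 encodes Chop, the factor linked to cell death under lasting ER stress, which is usually scarce without stress. Its level was 68.2, 77.3 and 68.1 CPM across the control libraries, 55.6, 102 and 85.1 across PINCH1 mutant libraries and 70.9, 75.3 and 64.3 across PINCH2 mutant libraries. The genotypes overlapped, with ratios to the controls of 1.13 (95% confidence interval 0.79 to 1.63) and 0.987 (0.686 to 1.42). Per kb of exon, Ddit3 was at 43.3 CPM, above Hspa5 at 11.99 and Hsp90b1 at 33.5. Ddit3 and Hsp90b1 overlap opposite-strand genes and Hspa5 does not, so this order could not be told from overlapping transcription. Trib3 and Chac1, both known targets of Chop and Atf4, had 1 and 0 counts in all.

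Atf4, the factor translated under amino acid shortage and Perk signalling, had 11.4, 20.7 and 6.27 CPM across the control libraries. It had 13.7, 1.13 and 14.2 CPM across PINCH1 mutant libraries and 27.5, 14.2 and 22.1 across PINCH2 mutant libraries. The 2 mutants did not overlap, though by less than 0.1 CPM, and both overlapped the controls. Between PINCH1 and PINCH2 mutants its log2 fold change was -1.07 (SE 0.58), with an adjusted p of 0.856. Atf4 is mainly controlled at translation, which these counts do not measure. Ppp1r15a, the phosphatase subunit that reverses the translation block, had 4, 5 and 15 counts across the control libraries, 11, 0 and 0 across PINCH1 mutant libraries and 5, 11 and 19 across PINCH2 mutant libraries. Asns, asparagine synthetase and a known Atf4 target, had 0 counts, which allows up to 3 counts in each library.

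In the cytosolic Hsp70 family, Hspa8 (chr9:40800984-40805200, plus strand) had no opposite-strand gene within 5000 bp. It had 58.9, 78.2 and 106 CPM across the control libraries, 93.9, 60.1 and 55.1 across PINCH1 mutant libraries and 38.1, 35.1 and 51.3 across PINCH2 mutant libraries. All 3 PINCH2 libraries lay below all 3 controls and all 3 PINCH1 libraries, while the PINCH1 mutants overlapped the controls. The ratio of PINCH2 mutants to controls was 0.511 (95% confidence interval 0.335 to 0.781). Its log2 fold change was -0.97 (SE 0.29), with an unadjusted p of 0.00347 that did not survive adjustment (adjusted p = 0.999, and 0.62 to 1 over the alternatives). Between PINCH1 and PINCH2 mutants the log2 fold change of Hspa8 was 0.75 (SE 0.30), with an unadjusted p of 0.019 and an adjusted p of 0.756. In the PINCH1 mutants against the controls it was -0.22 (SE 0.28), with an adjusted p of 0.939.

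The summed levels of the Schwann cell and myelin markers, given above, did not overlap the controls in either mutant. None of the 10 markers passed the test. The smallest adjusted p by edgeR was 0.373 in the PINCH1 mutants and 0.999 in the PINCH2 mutants. An unadjusted p under 0.05 and a lower level were found for 3 and 2 markers. The same was found for 4.09% and 2.6% of all tested entries, and for 120 and 92 of the 1944 with no opposite-strand overlap. In each mutant 9 of the 10 markers were below 0. This held for 52.2% of all tested entries in the PINCH1 mutants and 49.3% in the PINCH2 mutants. Of those with no opposite-strand overlap, 64.1% and 60% were below 0. For the PINCH2 mutants the median log2 fold change of the 10 markers was -0.24, and for the PINCH1 mutants -0.49. Summed fibroblast markers ran from 399 to 778 CPM in the controls and from 310 to 550 in the PINCH2 mutants. Summed macrophage markers ran from 576 to 756 and from 514 to 711 CPM, but 5466 of their counts were Csf1r, which overlaps Hmgxb3 on the opposite strand, while Cd163, C1qa and Cd68 had 550, 29 and 15. Their part in the values of Hspa8, Xbp1 and Canx was not tested. In whole nerves, fewer cells of a type and less RNA per cell cannot be told apart.

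The stress-inducible Hsp70 genes were close to the counting floor. Hspa1a had 0, 1 and 0 counts across the control libraries, 0, 3 and 0 across PINCH1 mutant libraries and 4, 0 and 1 across PINCH2 mutant libraries. Hspa1b had 0, 1 and 3 counts, then 0, 0 and 3, then 4, 1 and 1 in the same order. The 2 genes are near-identical copies, so reads may be split between them or dropped. Hsph1, the cytosolic Hsp110, had 7, 5 and 7 counts across the control libraries, 3, 5 and 1 across PINCH1 mutant libraries and 1, 1 and 0 across PINCH2 mutant libraries, and was not tested. Hspa4l, a relative of Hsp110, had log2 fold changes of -0.71 (SE 0.81) and -0.46 (SE 0.79), from 1 to 19 counts in a library.

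Among the cytosolic Hsp90 genes, neither of the 2 tested passed. Hsp90ab1, the constitutive form, had 167, 156 and 202 CPM across the control libraries, 192, 178 and 172 across PINCH1 mutant libraries and 175, 166 and 178 across PINCH2 mutant libraries. It had the highest level per kb of exon after Snx22, at 58.7 CPM. Its ratio to the controls was 1.03 (95% confidence interval 0.799 to 1.34) in the PINCH1 mutants and 0.987 (0.763 to 1.28) in the PINCH2 mutants. Hsp90aa1, the inducible form, had log2 fold changes of -0.08 (SE 0.34) and -0.42 (SE 0.34). Chordc1, an Hsp90 cochaperone, had 54 counts in all and was not tested.

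Dnaja1, a J-domain partner of Hsp70, had 82.7, 112 and 88.7 CPM across the control libraries, 97.6, 108 and 115 across PINCH1 mutant libraries and 113, 94.5 and 113 across PINCH2 mutant libraries. The groups overlapped, and the ratio to the controls was 1.13 in both mutants, with upper bounds of 1.54 and 1.53. Dnajb1 and Dnajb4, also J-domain proteins, had 27 and 52 counts in all. Hspb1, the small heat shock protein Hsp25, had 6 counts, and Bag3, an Hsp70 cochaperone, had 60. Hsf1 had 2, 2 and 6 counts across the control libraries, 0, 3 and 2 across PINCH1 mutant libraries and 5, 3 and 1 across PINCH2 mutant libraries, and was not tested.

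Hspd1 and Hspe1 encode the mitochondrial chaperonin Hsp60 and its lid Hsp10, and lie head to head with 112 bp of exon in common. Hspd1, picked after its values were seen, had 23.8, 36.8 and 34.9 CPM across the control libraries, 25.5, 36.3 and 18.4 across PINCH1 mutant libraries and 14.8, 21.8 and 22.1 across PINCH2 mutant libraries. The PINCH2 mutants all lay below the controls, with a log2 fold change of -0.70 (SE 0.36), and the adjusted p was 0.999. Hspe1 had log2 fold changes of -1.15 (SE 0.56) in the PINCH1 mutants and -0.40 (SE 0.53) in the PINCH2 mutants, with adjusted p-values of 0.759 and 0.999. Its counts ran from 4 to 30 in a library, and its groups overlapped.

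**Figure D3:**
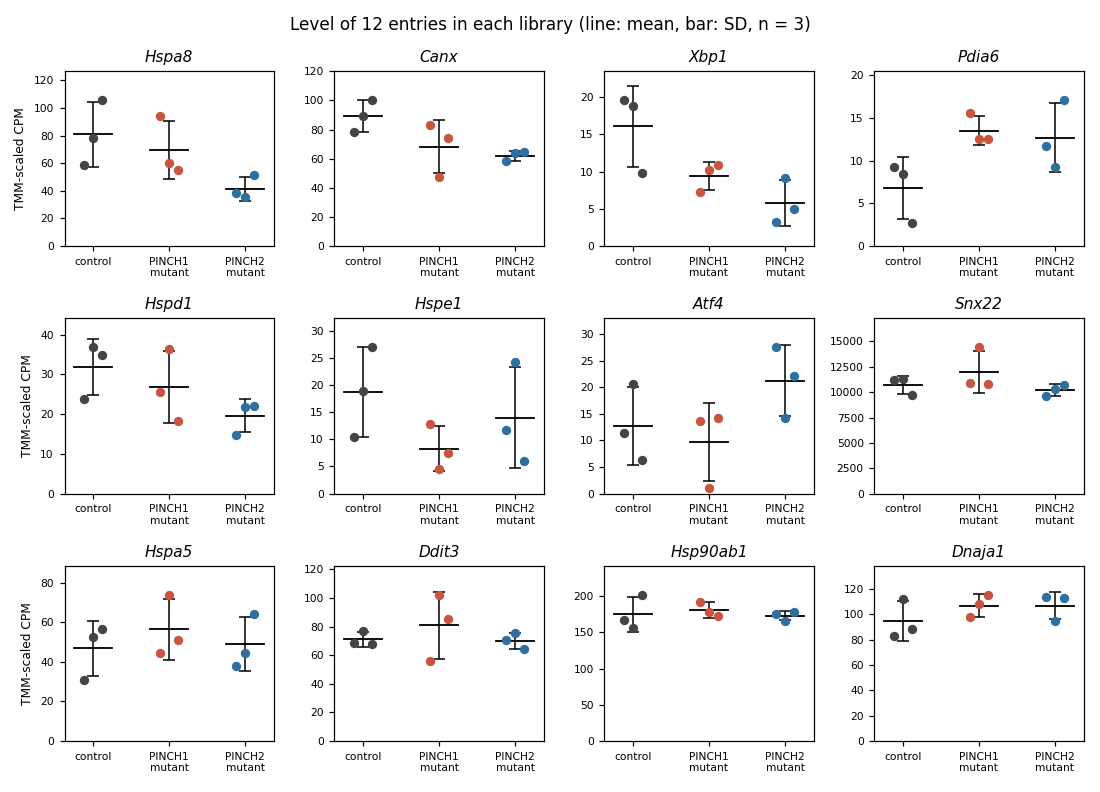
TMM-scaled CPM of 12 members in each library, by genotype; points are libraries, lines are means and bars are SD (n = 3), with each vertical axis from 0. The PINCH2 mutants lie below the controls for Hspa8, Canx, Xbp1 and Hspd1, and the genotypes overlap for Hspa5, Ddit3, Hsp90ab1 and Dnaja1.

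Counted over the set, 0 of 21 tested members had an unadjusted p under 0.05 in the PINCH1 mutants, where 6.37% of all tested entries did. The smallest there was that of Hspe1, at 0.0516 and lower. In the PINCH2 mutants 3 did, namely Hspa8, Xbp1 and Canx, all lower. Of all entries, 2.6% had such a p and a lower level. None of the 3 members overlaps an opposite-strand gene. Such a p and a lower level were found for 92 of the 1944 tested entries without an overlap and 31 of the 2794 with one. In the PINCH2 mutants 4 tested members lay wholly below the controls (Hspa8, Xbp1, Canx and Hspd1), where 4.81% of all tested entries did. Of these entries, 144 of the 1944 without an overlap and 84 of the 2794 with one lay wholly below. Hsph1 and Dnajb9, which were below the count filter and have no test, also lay wholly below the controls. No member lay wholly above the controls. Between the mutants, 0.0844% of all entries were called and 0 members were, while 1 member (Hspa8) had an unadjusted p under 0.05 and a higher level in the PINCH1 mutants, where 2.91% of all entries did. Hspa8 and Snx22 were wholly higher and Atf4 wholly lower in the PINCH1 mutants, where 11% of all entries did not overlap in either direction. The log2 fold change of Snx22 between the mutants was 0.24 (SE 0.14), with an adjusted p of 0.888.

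The median log2 fold change of the tested members was -0.08 in the PINCH1 mutants and -0.07 in the PINCH2 mutants, against -0.02 and 0.004 for all tested entries. By class the medians were 0.14 and 0.02 for the ER class and -0.22 and -0.42 for the heat shock class. In the PINCH2 mutants 6 of 7 tested heat shock members and 7 of 14 ER members were below 0, as were 49.3% of all tested entries. Entries with and without an opposite-strand gene differed in the whole table, with medians of 0.04 and -0.12 in the PINCH2 mutants. The members followed in the same order, at -0.02 for the 11 with such a gene and -0.44 for the 10 without, and Hspa8, Xbp1 and Canx were all among the 10. When both kinds of entry were scaled separately, the log2 fold changes in the PINCH2 mutants were -0.83 for Hspa8, -1.33 for Xbp1 and -0.40 for Canx, while Hsp90ab1 turned from -0.02 to 0.11. Members with the whole ER stress element had medians of 0.18 and -0.13 over 6 tested genes. The 2 mutant comparisons share their control libraries, so their values are given side by side and not as a replication.

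**Figure D4:**
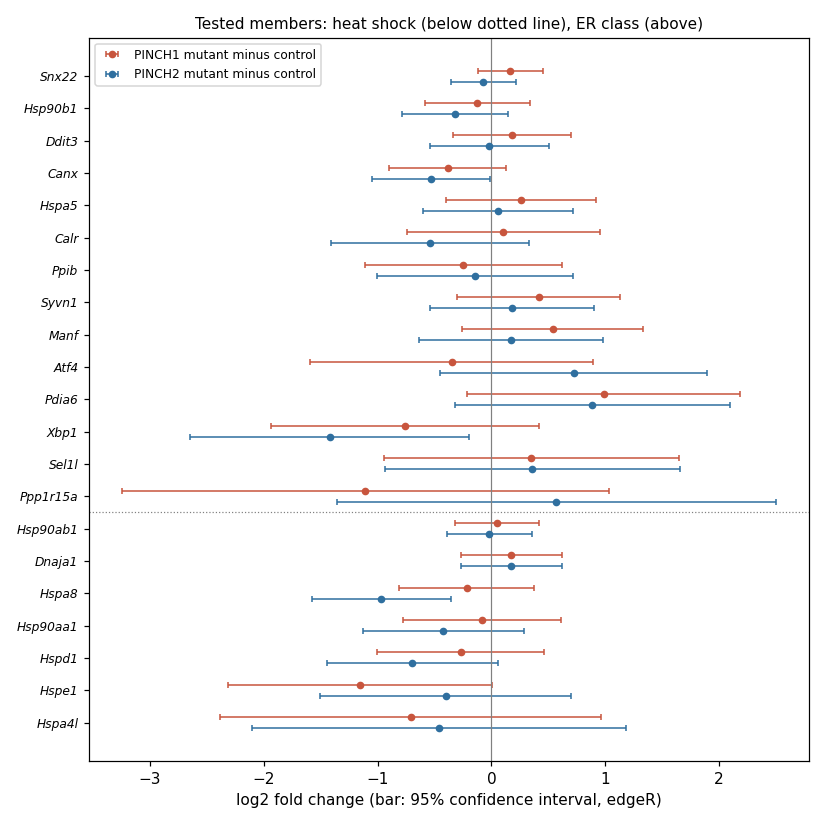
Log2 fold change of the 21 tested members in the PINCH1 and PINCH2 mutants against the controls, with 95% confidence intervals from the edgeR fit and the heat shock class below the dotted line. The intervals exclude 0 for 3 members in the PINCH2 mutants (Hspa8, Xbp1 and Canx) and for 0 in the PINCH1 mutants, before adjustment for the number of entries.

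The intervals set what could be seen at these counts. In the PINCH1 mutants 10 of 21 intervals lay within a 2-fold change in either direction, among them Hspa5, Hsp90b1, Ddit3, Canx, Hspa8, Hsp90ab1 and Dnaja1. In the PINCH2 mutants 8 did, among them Hspa5, Hsp90b1, Ddit3, Hsp90ab1 and Dnaja1. For the other tested members, a 2-fold change in at least 1 direction lay inside the interval.

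Other genes of the same pathways were read from the same fit. Of 47 further ER genes, including sensors, translocon subunits and isomerases, 21 were tested and 0 passed in any comparison, and 15 of the 21 were below 0 in each mutant, with medians of -0.10 and -0.21, beside the shares of all entries given above. Os9, a lectin of ER-associated degradation, had 22, 32 and 30 counts across the control libraries and 21, 5 and 16 in the PINCH1 mutants, with a log2 fold change of -1.03 (SE 0.42, unadjusted p = 0.0228, adjusted p = 0.65). Sec61a1, the channel of the translocon, which lies over Gm44170, was at -1.49 (SE 0.70) in the PINCH1 mutants, with an adjusted p of 0.759. Sec62, another translocon protein, which lies over 4933429H19Rik, had a log2 fold change of -1.05 (SE 0.42) between PINCH1 and PINCH2 mutants, with an adjusted p of 0.756. In the PINCH2 mutants none had an unadjusted p under 0.05. By the mean over all 9 libraries, the most abundant of these ER genes were Dnajc1, a J-domain protein that lies over Mllt10, and Ssr3, a translocon-associated protein. Their log2 fold changes in the PINCH2 mutants were 0.26 (SE 0.17) and -0.46 (SE 0.34).

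Of 54 further cytosolic and mitochondrial chaperone genes, 29 were tested and 0 passed. Dnajc7, a J-domain cochaperone, came closest, with 759, 386 and 554 counts across the control libraries, 330, 243 and 338 across PINCH1 mutant libraries and 472, 410 and 457 across PINCH2 mutant libraries. Its PINCH1 mutant libraries all lay below the controls, with a log2 fold change of -0.94 (SE 0.22) and an adjusted p of 0.21. On the opposite strand Dnajc7 overlaps both Nkiras2 and Cnp, a gene of myelinating cells, so its counts cannot be told apart from theirs. Hspa12b, an Hsp70 relative known from endothelium, was at 1.08 (SE 0.48, adjusted p = 0.733) in the PINCH1 mutants. Cct2 and Cct5, subunits of the cytosolic chaperonin, were at -0.98 (SE 0.45) and -1.12 (SE 0.50) in the PINCH2 mutants, both with an adjusted p of 0.999. Between PINCH1 and PINCH2 mutants, unadjusted p-values under 0.05 were also found for Cct5 at 1.06, for Stub1, which lies over Jmjd8, at 0.35, for Dnajc7 at -0.60 and for Cct8, which lies over Usp16, at -0.76 (adjusted p of 0.71 to 0.781). Of all tested entries, 6.35% had such a p between the mutants, in either direction. Stub1 encodes a ubiquitin ligase of the Hsp70 system.

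Immediate early genes, which respond to handling of tissue, were read beside the heat shock genes. Of 20 listed, 5 were tested and 0 had an unadjusted p under 0.05 in any comparison. Their summed level was 423 to 550 CPM in the controls, 501 to 563 in the PINCH1 mutants and 494 to 573 in the PINCH2 mutants. Most of that sum was Jund, with 3682 counts in all, followed by Fosl1 with 687, and these overlap Gm11175 and Ccdc85b on the opposite strand, while Fos and Egr1 had 2 and 3. Hspa1a, Hspa1b, Fos and Egr1 were all close to the counting floor, and a response to handling was not tested.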

How the data were processed

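RNA-seq of 9 pooled sciatic nerve libraries was analysed. Per the submitters' processing notes, the tools used were HISAT2 2.0.5, cutadapt 1.9.1 and Trim Galore 0.4.2, and the build was GRCm38. Which tool counted the reads, with which strand setting and annotation release, was not given in the sources used here. What the authors deposited, judged by its values, was a table of unscaled counts, in whole numbers, for 25965 entries. The reason for the excess of odd values among low counts, given above, is not known. No column was left out.

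From those counts, CPM were scaled by TMM and tested with edgeR 4.0.16 in R 4.3.3 (quasi-likelihood F-test, robust dispersion, filterByExpr with a minimum count of 10, genotype as the only term, all 9 libraries in 1 model). The filter kept 4738 entries. P-values were adjusted over these by the Benjamini-Hochberg method at 0.05. Replicates were pools of nerves, so p-values measure the spread between pools. SE was derived from the F statistic (log2 fold change over its square root), and 95% confidence intervals use the same fit. Values called not overlapping compare TMM-scaled CPM. The procedure was tested on simulated data.

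Opposite-strand exon overlaps came from GENCODE M21 with bedtools 2.31.1, where 96.5% of entries were found by identifier. Levels between genes were compared per kb of exon in that annotation. Promoter sequences were RefSeq's.

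The members and all lists were chosen with earlier results of these data known. The rule for naming took members past the threshold, members with an unadjusted p under 0.05, the 8 with the highest mean CPM and the textbook members of each class. From the other lists it took genes with an unadjusted p under 0.05, otherwise the 2 most abundant.

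Alternatives were upper-quartile or RLE scaling, leaving the 20 most abundant entries out of TMM, limma-voom (limma 3.58.1), DESeq2 1.42.0, a CPM filter (1 CPM or more in 3 or more libraries), no filter, a fit of the 6 libraries alone, a block for the replicate number, an adjusted p of 0.01, separate scaling of entries with and without an opposite-strand gene, and each library left out in turn.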

Additional observations from a re-analysis of the deposited data

How the results depend on the processing

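No member was called in any comparison under any of the 20 alternative settings, 9 of which left out 1 library each. Members tested ranged from 18 to 39. Hspa8 kept an unadjusted p under 0.05 in the PINCH2 mutants under all 19 settings that refit it (0.000889 to 0.0362), Xbp1 under 14 and Canx under 7. Hspe1 in the PINCH1 mutants, at 0.0516 in the reported fit, was under 0.05 in 10 of 19 (0.0219 to 0.23).

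Whether the replicate numbers pair the libraries was not settled, since each genotype had only 3 libraries. Deviations of same-numbered libraries correlated at -0.11 to 0.105 between PINCH1 mutants and controls, at -0.0182 to 0.25 between PINCH2 mutants and controls and at 0.0105 to 0.0605 between the mutants. The best match in the other genotype carried the same number for replicates 2 and 3 between PINCH1 mutants and controls. It did so for replicates 1 and 2 between PINCH2 mutants and controls and between the mutants. The remaining replicate of each comparison matched another number best. With the number as a replicate block, 0 members were called and Hspa8 had a log2 fold change of -0.97 in the PINCH2 mutants. All entries called with the block were 2 higher and 3 lower in the PINCH1 mutants, and 0 in the PINCH2 mutants.

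Of 851 member fold changes refitted, 817 kept their direction and 34 reversed, none of them past the threshold. Under limma-voom, Calr was at -0.023 in the PINCH1 mutants and Hspa4l at 0.047 in the PINCH2 mutants. With entries scaled separately by opposite-strand overlap, Hsp90aa1 was at 0.10 in the PINCH1 mutants and Hsp90ab1 at 0.11 in the PINCH2 mutants. With the filter on CPM, Ddit3 was at 0.0044 and Hsp90ab1 at 0.0084 in the PINCH2 mutants. With 1 library left out, log2 fold changes that crossed 0 in the PINCH1 mutants ran from -0.30 to 0.10 for Hsp90b1, from -0.011 to 0.40 for Ddit3, from -0.71 to 0.19 for Atf4, from -0.34 to 0.51 for Calr, from -0.064 to 0.64 for Sel1l, from -0.67 to 0.21 for Ppib, from -0.49 to 0.023 for Hspa8, from -0.32 to 0.20 for Hsp90aa1 and from -0.028 to 0.16 for Hsp90ab1. With 1 library left out, log2 fold changes that crossed 0 in the PINCH2 mutants ran from -0.18 to 0.22 for Hspa5, from -0.086 to 0.044 for Ddit3, from -0.14 to 0.48 for Manf, from -0.077 to 0.67 for Sel1l, from -0.093 to 0.43 for Syvn1, from -0.026 to 1.31 for Ppp1r15a, from -0.52 to 0.31 for Ppib, from -0.10 to 0.10 for Hsp90ab1 and from -0.98 to 0.10 for Hspa4l. The cause of each reversal was not tested. Without PINCH1 mutant library 1, both remaining libraries had 0 counts of Ppp1r15a, so no fold is given.

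Across all entries, calls (higher and lower) in the PINCH1 mutants were 1 and 2 in the reported fit, 8 and 7 with no filter, 8 and 8 with the CPM filter, 3 and 4 with DESeq2 and 1 and 0 with limma-voom. Between the mutants they were 2 and 2, then 12 and 8, 13 and 14, 3 and 4, and 2 and 1. Low counts limit the set. Of its members 20 fell below the filter, and intervals for 11 tested members in the PINCH1 mutants reached a 2-fold change. The cause of the low counts was not tested.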
